A study of Mus musculus with 36 samples.

Results

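Optic nerve crush and microbead glaucoma were compared directly in the myelinated optic nerve (MON), the first myelinated stretch of nerve behind the eye, leaving the naïve nerve out of the model. The comparison held 8 of the 36 RNA-seq libraries of the series, picked by their labels. These were the MON libraries taken 3 D and 2 W after crush (4 libraries) against those taken 3 D and 2 W after microbead injection (4 libraries). Earlier results of these data were known when the libraries and the gene lists below were chosen. All mice were young adult C57BL/6 mice. In the crush groups 1 nerve of each mouse was squeezed with forceps. The authors state that crush acts directly on the MON, so that the region compared here is the one injured by hand. The distance of the crush from the eye was not given in the sources used here. In the glaucoma groups 1 eye received microbeads in its anterior chamber, which raise the pressure inside the eye, so that the nerve itself was not touched. Each of the 4 groups was 1 library from a pool of 2 female mice and 1 library from a pool of 2 male mice, so that a difference between pools and a difference between sexes cannot be told apart within a group.

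The optic nerve carries the axons of retinal ganglion cells, whose cell bodies lie in the retina. The axons are unmyelinated just behind the eye (UON) and are wrapped by oligodendrocytes in the MON, where astrocytes, microglia, oligodendrocyte precursors, vessels and a meningeal sheath make up the rest of the tissue. A crush severs the axons at 1 place, after which the severed stretch breaks down and microglia and blood-borne macrophages clear axon and myelin debris, slowly in the central nervous system. Raised eye pressure injures the axons at the nerve head, and their loss along the myelinated nerve is gradual and partial.

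The libraries held 16.3 to 53.4 M counts after crush and 23.3 to 76.7 M counts in glaucoma. The libraries held the RNA that the tissue label calls for. Mbp, the myelin basic protein gene, was at 27798 to 97625 CPM (counts scaled to a common library total), Gfap of astrocytes at 6062 to 15317 CPM and Csf1r of microglia at 418 to 1006 CPM. RNA of the retina was not wholly absent: the summed CPM of 15 photoreceptor genes ran from 35.5 to 93 after crush and from 49.3 to 179 in glaucoma. Genes of surface epithelium stood apart in 1 library: the summed CPM of 6 tested genes (2 more, Krt12 and Trp63, were not tested) was 1906 in the male pool of glaucoma 2 W and 3.01 to 10.2 in the other 7 libraries. Glaucoma 3 D differed widely between its pools, with the summed CPM of 33 cell cycle genes at 886 in the female pool and 218 in the male pool. By the distance between whole expression profiles, the closest pair of the 8 libraries was the female pools of crush 3 D and glaucoma 3 D (78.4). The pools of crush 3 D lay 87.4 apart, those of glaucoma 3 D 99.5, and the male pools of the 2 injuries 131.8. Libraries of 3 D thus did not all pair by injury. In bulk tissue, fewer cells of a type and less RNA per cell cannot be told apart.

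Counts were compared with the quasi-likelihood test of edgeR, with time and sex as terms, over 22302 genes. Calls needed a log2 difference beyond 1 and an adjusted p below 0.05. Values below are log2 differences of crush minus glaucoma with their standard error (SE), and CPM on library sizes scaled by the TMM method. Over both times, edgeR called 0 genes (0%), and the smallest adjusted p of the edgeR test was 0.163, for Fa2h. At an unadjusted p under 0.05, 1536 genes (6.89%) were higher after crush and 1427 (6.4%) were lower. DESeq2, fitted to the same libraries and terms with the same limits, called 504 genes (2.26%) higher and 205 (0.919%) lower, so that the number of calls depended on the tool. In 640 genes (2.87%) every crush library lay above every glaucoma library, and in 791 (3.55%) every crush library lay below. The median log2 difference over all genes tested was -0.04. These percentages are the background against which the gene groups below are read, and genes that edgeR did not call are given as higher or lower by their values. Among the 12000 genes at a mean of 5 CPM or more, fitted alone, 1345 were higher and 944 lower by edgeR at an unadjusted p under 0.05. Of 10 housekeeping genes 4 were higher and 1 lower, with a median of 0.41. Lists with a like share of higher members and a like median are not set apart from these genes.

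RNA of axons and neurons was lower after crush for part of the genes listed. The summed level of the list was lower only at 2 W. Of 16 axonal and neuronal genes, 1 was higher and 6 were lower at an unadjusted p under 0.05 over both times, and DESeq2 called 1 higher and 5 lower. Across the list the median was -0.87 at 3 D and -1.89 at 2 W, and -0.98 over both times (-1.40 to -0.73 with single libraries left out). At 3 D 1 member was higher and 3 were lower, and DESeq2 called 0. The summed CPM at 3 D was 697 and 878 in the female and male pools after crush. In glaucoma 3 D it was 780 and 718, and in the naïve MON 694 and 675. At 2 W it was 247 and 178 after crush, against 312 and 352 in glaucoma. The 6 lower members over both times became 3 without the male pool of crush 2 W and 4 without the female pool. Over all genes at 3 D, 1064 (4.77%) were higher and 1121 (5.03%) lower at an unadjusted p under 0.05, and at 2 W 753 (3.38%) were higher and 879 (3.94%) lower. Photoreceptor genes, which mark RNA of the retina, were also lower for 5 of 15 members at that p over both times, and for 0 without the male pool of glaucoma 2 W, 0 without the female pool of glaucoma 3 D, and 1 without the female pool of crush 2 W or the male pool of crush 3 D. Their summed levels are given above, and their part in the axonal values was not tested.

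Kif5a (chr10:127225696-127263348, minus strand, GRCm38), which encodes a kinesin heavy chain of axonal transport, was at 4497 CPM in the female and 2081 CPM in the male pool of crush 3 D, and at 90.1 and 99.2 CPM in those of crush 2 W. In glaucoma it was at 4880 and 9810 CPM at 3 D and at 5050 and 8505 CPM at 2 W, and in the naïve MON at 11124 and 6493 CPM. All crush libraries lay below all glaucoma libraries, by a log2 difference of -1.08 (SE 0.51) at 3 D and -6.14 (SE 0.61) at 2 W, and at 2 W the mean of the glaucoma libraries was 71.6 times that of the crush libraries. Kif5a stands outside the list, as do Unc13c, Rph3a, Nrsn1 and Cacng3 below, and was taken by the naming rule from the DESeq2 calls. The adjusted p of the edgeR test at 2 W was 0.08, and DESeq2 called Kif5a lower at that time.

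Unc13c, which encodes a Munc13 protein that primes synaptic vesicles, was at 564 and 367 CPM in the female and male pools of crush 3 D and at 4.01 and 4.43 CPM in those of crush 2 W, against 663 and 1303 CPM at 3 D and 388 and 1052 CPM at 2 W in glaucoma. Its levels at 2 W did not overlap between the injuries, and the log2 difference there was -7.32 (SE 0.61, adjusted p 0.0517 by edgeR). Rph3a, which encodes the vesicle protein rabphilin, was at 79.3 and 35.1 CPM at 3 D and 0.631 and 0.73 CPM at 2 W after crush, against 97 and 179 CPM and then 65.8 and 173 CPM in glaucoma. For Rph3a the log2 difference was -1.15 (SE 0.56) at 3 D and -7.40 (SE 0.75) at 2 W, and the mean of the glaucoma libraries at 2 W was 175 times that of the crush libraries.

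Nefl, the light neurofilament chain of the axonal skeleton, was at 76.6 CPM in the female and 29.4 CPM in the male pool at 3 D after crush, and at 0.516 and 0.108 CPM at 2 W. In glaucoma Nefl was at 70.7 and 134 CPM and then at 34.1 and 47 CPM. The crush libraries at 2 W were thus near the limit of detection for this gene, and its log2 difference there was -7.29 (SE 0.85). Nrsn1, which encodes the vesicle membrane protein neurensin, had a log2 difference of -5.89 (SE 0.62) at 2 W. Cacng3, which encodes an auxiliary subunit of calcium channels and glutamate receptors, had one of -5.28 (SE 0.62).

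Ina, which encodes the neurofilament protein internexin, had a pooled log2 difference of -2.36 (SE 0.49). For Snap25, a vesicle fusion protein of nerve terminals, it was -2.17 (SE 0.50). Sncg, the ganglion cell gene of gamma-synuclein, was at 2.24 to 5.17 CPM in the crush libraries and at 9.55 to 18.4 CPM in the glaucoma libraries, with no overlap (-1.83, SE 0.35). Stmn2, a microtubule regulator of growing and injured neurons, went the other way: it was at 39.1 and 20.9 CPM at 3 D and 20.1 and 12.2 CPM at 2 W after crush, against 24.6 and 1.97 CPM and then 3.3 and 1.51 CPM in glaucoma (2.30, SE 0.53). Gap43 (-0.49, SE 0.31), Tubb3 (0.07, SE 0.30) and Uchl1 (-0.01, SE 0.15), which are also expressed by neurons, had overlapping groups. Axonal RNA in the crush libraries was therefore not lower for every member of the list.

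**Figure D1:**
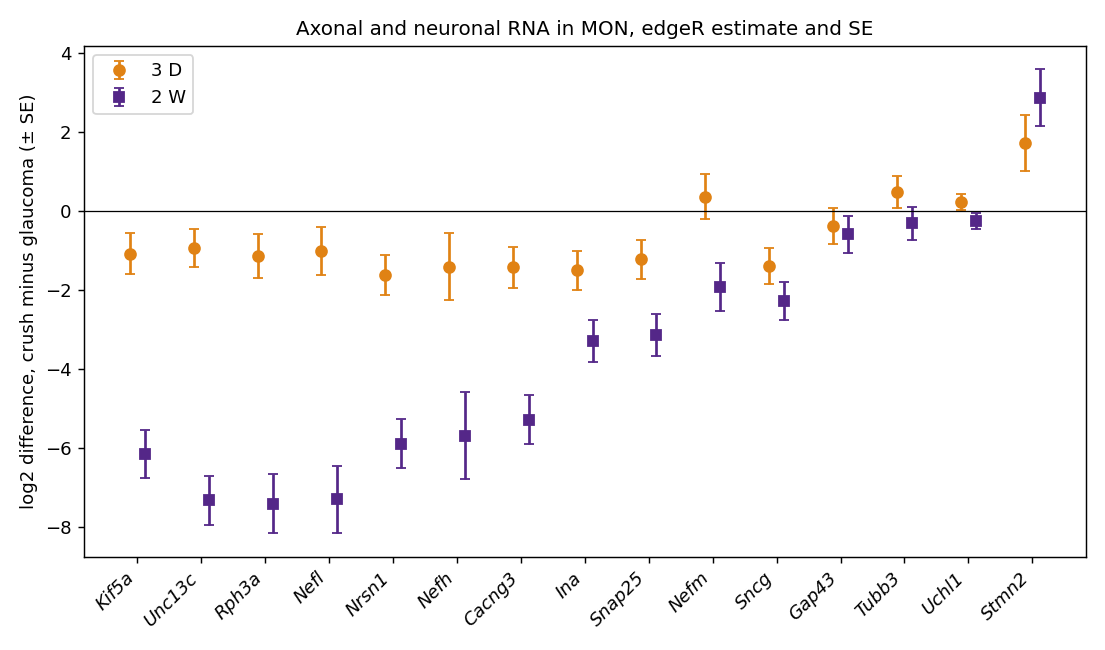
Log2 difference of crush minus glaucoma in the MON (y axis) for 15 chosen genes of axons and neurons (x axis) at 3 D (circles) and 2 W (squares). Kif5a, Unc13c, Rph3a, Nrsn1 and Cacng3 are outside the list of 16 genes and were named for large lower values among DESeq2 calls. Not all members of that list are shown. Its median was -0.87 at 3 D and -1.89 at 2 W, with 3 of 16 members above 0 at 2 W. Points are edgeR estimates from 2 libraries a side. Bars are ± SE, from the F statistic of a fit whose dispersion was estimated over 8 libraries. Kif5a, Unc13c, Rph3a, Nefl, Nrsn1, Nefh and Cacng3 lie between -0.94 and -1.63 at 3 D and between -5.28 and -7.40 at 2 W, while Gap43, Tubb3 and Uchl1 lie between -0.59 and 0.47 and Stmn2 lies above 0.

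Whether a difference changed between 3 D and 2 W was tested by the interaction of injury and time. edgeR called 0 genes (0%), and DESeq2 called 60 (0.269%). At an unadjusted p under 0.05 by edgeR there were 846 genes (3.79%), against 13.3% for crush against glaucoma over both times. Among those that DESeq2 called lower at 2 W than at 3 D were Unc13c (change of the log2 difference -6.37, SE 0.71), Rph3a (-6.25, SE 0.88), Nefl (-6.26, SE 1.01), Nrsn1 (-4.26, SE 0.75) and Cacng3 (-3.85, SE 0.77). Kif5a had a change of -5.06 (SE 0.73) that neither tool called.

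Genes of the cell cycle were higher after crush. Of 33 cell cycle genes, 32 were higher and 0 lower by edgeR at an unadjusted p under 0.05, against 6.89% higher over all genes, and DESeq2 called 25 higher and 0 lower. The list had a median of 1.96, with 2.27 at 3 D and 1.53 at 2 W. No member had all crush libraries above all glaucoma libraries, and the summed level of the list in the female pool of glaucoma 3 D lay above both crush pools at 2 W. The summed CPM of the list was 1603 and 2000 in the female and male pools of crush 3 D and 410 and 243 in those of crush 2 W, against 886 and 218 and then 190 and 150 in glaucoma, and 161 in each naïve pool. Within each time both crush libraries were above both glaucoma libraries. With any 1 library left out, the median of the list ran from 1.55 to 2.40 and the number of higher members from 27 to 32.

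Ccnb2, a B-type cyclin that drives mitosis, was at 37.7 and 45.3 CPM in the female and male pools at 3 D and 5.68 and 3.08 CPM at 2 W after crush, against 15.1 and 2.87 CPM and then 1.03 and 0.816 CPM in glaucoma. The crush libraries were the higher ones at each time, and the pooled log2 difference was 2.36 (SE 0.42). Top2a, the topoisomerase of replicating chromosomes, was at 92 and 135 CPM and then 20.6 and 12.3 CPM after crush, against 53.1 and 5.92 CPM and then 5.07 and 0.962 CPM in glaucoma (2.75, SE 0.59). Mki67, the common marker of dividing cells, had a log2 difference of 2.26 (SE 0.50). The values of Cenpf (centromere protein F, 2.04, SE 0.37), Ccnb1 (cyclin B1, 1.96, SE 0.36), Aurkb (a mitotic kinase, 2.38, SE 0.44) and Cdc20 (an activator of the ubiquitin ligase that ends mitosis, 2.04, SE 0.42) were of like size. Mcm6 (0.84, SE 0.27) and Pcna (0.54, SE 0.20), which serve DNA replication, differed by less. Melk, a mitotic kinase (0.84, SE 0.92), was the 1 member that did not reach an unadjusted p of 0.05.

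Promoters of mitotic genes often carry the cell cycle homology region (CHR) and CCAAT boxes, to which the DREAM complex and the factor NF-Y bind. The 250 bases before the annotated start of Ccnb2 (chr9:70421555-70421804) and Cdc20 (chr4:118437344-118437593), both on the minus strand of GRCm38.p6 in RefSeq, are shown since both elements occur in them. Capitals mark TTTGAA, the core of the CHR, and CCAAT, on either strand.
Ccnb2: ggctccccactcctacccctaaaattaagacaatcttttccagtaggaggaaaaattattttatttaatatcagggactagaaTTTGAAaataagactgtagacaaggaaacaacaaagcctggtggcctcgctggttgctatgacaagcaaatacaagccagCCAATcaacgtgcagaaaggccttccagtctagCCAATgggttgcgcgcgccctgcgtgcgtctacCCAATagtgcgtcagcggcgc
Cdc20: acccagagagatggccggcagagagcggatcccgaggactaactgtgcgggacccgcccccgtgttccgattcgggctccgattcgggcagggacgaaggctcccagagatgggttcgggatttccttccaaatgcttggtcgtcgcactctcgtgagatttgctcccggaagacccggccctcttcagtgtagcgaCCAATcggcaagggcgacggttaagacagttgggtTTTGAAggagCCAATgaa
TTTGAA stood in the promoters of 10 of 30 cell cycle genes with a RefSeq entry (33.3%) and in 18.3% of all 27025 genes with an entry. CCAAT, a search chosen after values were seen, stood in 25 of 30 (83.3%) and in 37.5%. A gene counted if any of its entries of 250 bases held the string. Neither string contains the other. A match is a description of the letters and says nothing of the factor.

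Genes of disease-associated microglia and phagocytes were higher after crush, with 12 of 19 higher and 0 lower at 3 D and 11 higher and 0 lower at 2 W by edgeR at an unadjusted p under 0.05. Over both times, of these 19 genes 14 were higher and 0 lower, and DESeq2 called 11 higher and 0 lower. The list median was 1.14 at 3 D and 1.40 at 2 W, and 5 members (Igf1, Trem2, Tyrobp, Cd68 and Clec7a) had every crush library above every glaucoma library. Trem2, a lipid-sensing receptor of phagocytes, was at 177 and 226 CPM in the female and male pools at 3 D and 515 and 290 CPM at 2 W after crush, against 102 and 84.9 CPM and then 131 and 92.2 CPM in glaucoma, and 38.5 and 67.9 CPM in the naïve MON. The lowest crush library was thus above the highest glaucoma library (log2 difference 1.49, SE 0.23). Igf1, a growth factor that activated microglia make, was at 42.6 to 133 CPM after crush and 4.18 to 22.5 CPM in glaucoma (2.46, SE 0.35). Tyrobp, the signalling partner of Trem2, had a log2 difference of 1.45 (SE 0.25), and Cd68, a lysosomal glycoprotein of phagocytes, one of 1.90 (SE 0.33).

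Cst7, a cystatin protease inhibitor of activated microglia, was at 30.6 and 21.1 CPM at 3 D and 392 and 258 CPM at 2 W after crush, against 17.9 and 12.8 CPM and then 68.8 and 33.9 CPM in glaucoma. The groups were apart at each time. The log2 difference was 0.74 (SE 0.20) at 3 D and 2.71 (SE 0.22, adjusted p 0.0517 by edgeR) at 2 W, and DESeq2 called its change between times. Spp1, which encodes the secreted protein osteopontin, was at 7279 and 16669 CPM and then 4250 and 605 CPM after crush. In glaucoma Spp1 was at 6399 and 67.2 CPM and then 696 and 143 CPM, so that the pools of a group spread as widely as the groups (2.98, SE 1.06). Apoe, the lipid carrier, ran from 2788 to 10336 CPM after crush and from 2073 to 18681 CPM in glaucoma (0.32, SE 0.49).

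Homeostatic genes of microglia did not share that difference in their median. Of 14 such genes 3 were higher and 0 lower at an unadjusted p under 0.05 (1 higher without either pool of glaucoma 2 W), and the median log2 difference was 0.01, which lay between -0.17 and 0.30 with single libraries left out. P2ry12, a purine receptor of resting microglia, was at 26.4 and 11.7 CPM at 3 D and 34.1 and 30.4 CPM at 2 W after crush, against 22.8 and 54.5 CPM and then 51.5 and 22.3 CPM in glaucoma, and the groups overlapped (-0.63, SE 0.42). Tmem119, another microglial marker, also overlapped (-0.25, SE 0.27). Fcrls, an Fc receptor-like gene of microglia, was at 268 and 286 CPM and then 659 and 298 CPM after crush, against 142 and 27 CPM and then 144 and 48.2 CPM in glaucoma, with no overlap (2.31, SE 0.36).

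Of 13 genes of infiltrating and border macrophages, 6 were higher and 0 lower at an unadjusted p under 0.05 over both times, and DESeq2 called 4 higher. At 3 D 6 were higher and 0 lower (median 1.80), whereas at 2 W 1 was higher and 2 were lower (median 0.99), with 6 of 13 log2 differences below 0. The 6 higher members over both times became 3 without the female pool of crush 2 W. The pooled median log2 difference of 1.19 was 0.62 without the female pool of crush 2 W and 0.06 without the male pool of crush 3 D, in which the summed CPM of these genes was 1180, against 55 to 351 in the other crush libraries and 41.9 to 375 in glaucoma. Ms4a7, a membrane gene of macrophages, was at 41.1 and 70.4 CPM at 3 D and 89.2 and 26.3 CPM at 2 W after crush, against 19.7 and 5.63 CPM and then 6.52 and 12.7 CPM in glaucoma, with no overlap (2.36, SE 0.51). Ccr2, the receptor that draws monocytes from blood, was at 6.74 and 30.5 CPM and then 11.2 and 6.33 CPM after crush, against 6.96 and 4.04 CPM and then 3.42 and 2.74 CPM in glaucoma (1.63, SE 0.49). Red blood cell genes were also higher after crush than in glaucoma, for 5 of 6 at an unadjusted p under 0.05. Their summed CPM was 713 and 1479 and then 413 and 140 after crush, against 651 and 340 and then 86.8 and 85 in glaucoma. The female and male naïve pools held 525 and 464, with 15 and 17.6 for the macrophage genes. In the male pool of glaucoma 2 W the macrophage genes summed to 300 and the red blood cell genes to 85. The alpha and beta globin copies, which are near identical, may share reads. The part of blood in the macrophage values was not tested.

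Lysosomal enzymes were higher after crush, while the sterol-sensing genes of the same list lay the other way. Of 21 genes of lysosomes and lipid handling, 12 were higher and 3 lower at an unadjusted p under 0.05, DESeq2 called 8 higher and 2 lower, and 9 had all crush libraries above all glaucoma libraries while 1 (Srebf2) had them all below. Without the female pool of crush 2 W the list had 7 higher and 1 lower. Ctsd, the lysosomal protease cathepsin D, was at 11938 and 16020 CPM in the female and male pools at 3 D and 23759 and 11867 CPM at 2 W after crush, against 6934 and 3327 CPM and then 6637 and 3748 CPM in glaucoma, and 1736 and 1713 CPM in the naïve MON. Every crush library exceeded every glaucoma library, which in turn exceeded the naïve ones, and the log2 difference was 1.68 (SE 0.28). Ctsb, cathepsin B, was at 4962 to 11818 CPM after crush and 1988 to 3790 CPM in glaucoma (1.59, SE 0.32). For Ctsz, cathepsin Z, the log2 difference was 1.25 (SE 0.21).

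Abca1, which exports cholesterol from cells, was at 207 CPM in both pools at 3 D and at 447 and 293 CPM at 2 W after crush, against 121 and 34.8 CPM and then 159 and 123 CPM in glaucoma (1.49, SE 0.28). Ch25h, which makes 25-hydroxycholesterol, was at 44.5 to 56.9 CPM after crush and 7.99 to 34.1 CPM in glaucoma (1.65, SE 0.32). Neither overlapped between injuries. Plin2, a coat protein of lipid droplets, was at 541 and 1201 CPM and then 299 and 149 CPM after crush, against 355 and 65.2 CPM and then 72.7 and 64.7 CPM in glaucoma (1.97, SE 0.52). Insig1, which holds the sterol sensor in the endoplasmic reticulum, had a log2 difference of -1.14 (SE 0.38), and Srebf2, the master factor of sterol synthesis, one of -0.67 (SE 0.18).

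The promoter of Ctsd (chr7:142387828-142388077, minus strand, RefSeq on GRCm38.p6) is shown because it held the palindrome TCACGTGA, the core of the CLEAR element of lysosomal genes, in capitals.
Ctsd: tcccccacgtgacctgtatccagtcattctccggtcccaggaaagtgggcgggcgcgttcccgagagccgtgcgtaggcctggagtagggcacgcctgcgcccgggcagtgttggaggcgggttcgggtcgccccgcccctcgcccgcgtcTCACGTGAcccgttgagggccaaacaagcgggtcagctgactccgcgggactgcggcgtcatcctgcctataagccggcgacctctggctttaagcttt
On both strands the palindrome stood in 1 of 17 lysosome and lipid handling genes with an entry (5.88%) and in 0.907% of all genes with an entry.

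**Figure D2:**
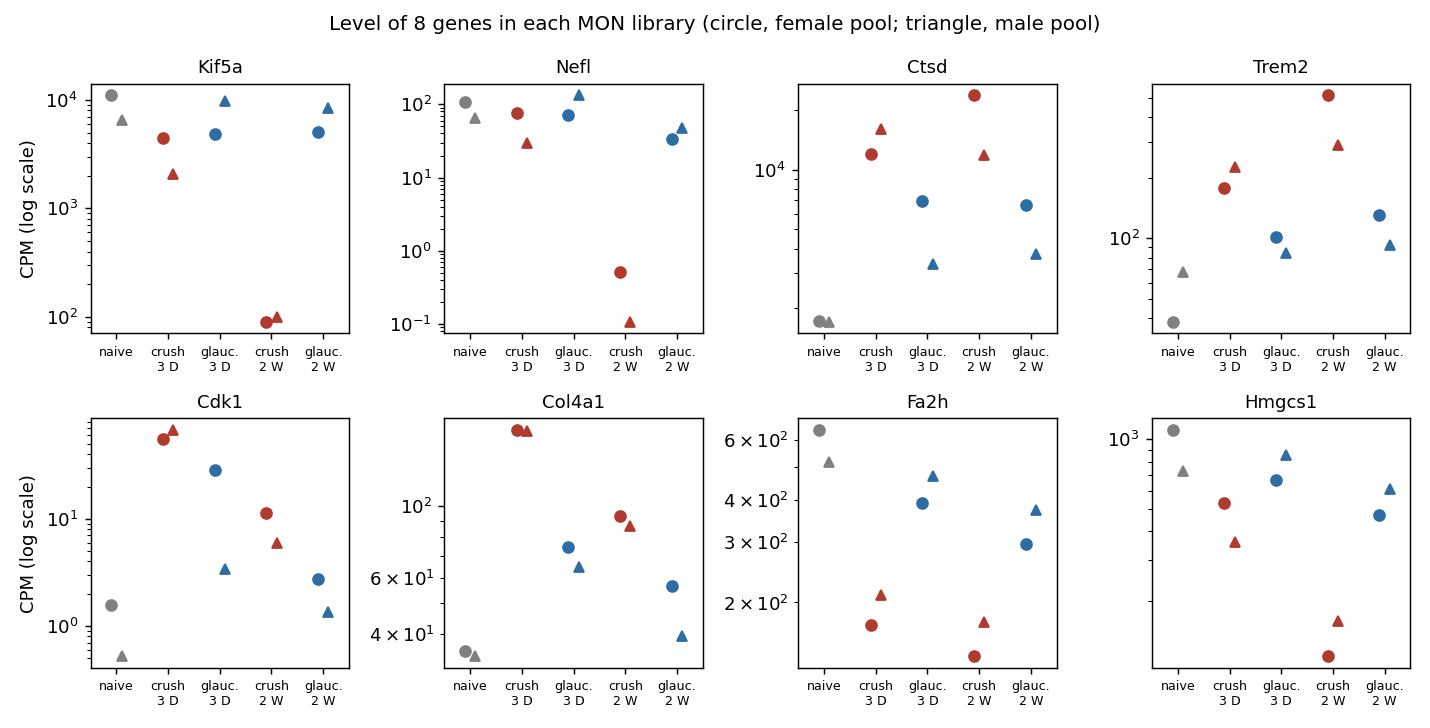
Level of 8 genes (CPM, log axis) in each MON library, with naïve, crush and glaucoma at 3 D and 2 W along the x axis, circles for female and triangles for male pools. Ctsd, Trem2 and Col4a1 lie higher in every crush than in every glaucoma library, Fa2h and Kif5a lower, and Nefl at 2 W after crush lies at 0.516 and 0.108 CPM.

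In the complement list the initiating component and the phagocyte receptors were higher after crush. Of 19 genes, 8 were higher and 2 lower at an unadjusted p under 0.05, and DESeq2 called 7 higher and 0 lower. The list median was -0.30 at 3 D and 1.18 at 2 W, and the pooled median of 0.48 ran from -0.15 without the female pool of glaucoma 2 W to 1.05 without the male pool of glaucoma 3 D. C1qa, a chain of the C1q molecule that tags debris and synapses, was at 473 and 613 CPM at 3 D and 1161 and 587 CPM at 2 W after crush, against 313 CPM in both pools and then 429 and 303 CPM in glaucoma (1.02, SE 0.24). C1qa did not overlap between injuries, nor did C1qb (0.96, SE 0.23) and C1qc (1.05, SE 0.27). C3ar1, the receptor for the fragment C3a, was at 154 and 291 CPM and then 181 and 98.8 CPM after crush, against 108 and 28.8 CPM and then 65.1 and 42.2 CPM in glaucoma (1.66, SE 0.41). Cd59a, which blocks the membrane attack complex, had a log2 difference of -0.54 (SE 0.20).

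Of 24 chemokines and their receptors, 7 were higher and 1 lower at an unadjusted p under 0.05, DESeq2 called 3 higher and 0 lower, and the median log2 difference was 0.71. The 7 became 3 without the female pool of crush 2 W and also without the male pool of crush 3 D. Cxcl16, a scavenger chemokine of macrophages, was at 67.4 and 118 CPM and then 182 and 121 CPM after crush, against 48.4 and 67.2 CPM and then 94.6 and 63.2 CPM in glaucoma (0.81, SE 0.25). Cx3cl1, the neuronal chemokine fractalkine, was at 23.9 and 19.4 CPM and then 38 and 65.5 CPM after crush, against 27.7 and 57.5 CPM and then 83.7 and 62 CPM in glaucoma (-0.73, SE 0.27). Of 16 antigen presentation genes, 6 were higher and 0 lower, with a median of 0.46. By share and median this list is not set apart from the housekeeping genes (4 of 10 higher, median 0.41). The 6 became 0 without the female pool of crush 2 W and 10 without that of crush 3 D. H2-Ab1, a class II chain, ran from 78.3 to 419 CPM after crush and from 54.1 to 116 CPM in glaucoma (1.38, SE 0.51).

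Of 19 collagen chains, 8 were higher after crush and 0 lower at an unadjusted p under 0.05, DESeq2 called 5 higher and 0 lower, and the median log2 difference was 0.20 at 3 D and 1.29 at 2 W (0.77 over both times, or 0.41 without the male pool of glaucoma 2 W). At 3 D 7 of the 19 lay below 0 and at 2 W none did, and the 8 higher members became 15 without the male pool of glaucoma 3 D. Col4a1, a chain of the basement membrane collagen, was at 173 and 172 CPM at 3 D and 93 and 86.9 CPM at 2 W after crush, against 74.6 and 64.9 CPM and then 56.6 and 39.4 CPM in glaucoma, and 35.5 and 34.1 CPM in the naïve MON. The 2 pools of each group lay close together and the injuries did not overlap (1.12, SE 0.15). Its partner Col4a2 had log2 differences of 1.04 (SE 0.21) at 3 D and 0.97 (SE 0.21) at 2 W, with 49.9 CPM in the lowest crush and 51.1 CPM in the highest glaucoma library. Col18a1, the source of endostatin, was at 55.6 to 93.6 CPM after crush and 23.8 to 55.4 CPM in glaucoma (0.99, SE 0.20). Col11a1, a fibrillar chain, was at 18.5 and 19.8 CPM and then 48.3 and 42.3 CPM after crush, against 16.8 and 7.85 CPM and then 17.2 and 9.77 CPM in glaucoma (1.28, SE 0.30). Meningeal fibroblast genes stood beside these values: 13 of 14 lay below 0 at 3 D (median -1.55) and 14 of 14 above 0 at 2 W, with a median change between times of 2.62. The value at 3 D leaned on 1 library. Summed CPM of these genes was 354 in the female and 1358 in the male pool of glaucoma 3 D, against 379 and 404 after crush. Their pooled median of -0.18 ran from -0.62 to 0.75 with single libraries left out, with 0.75 without the male pool of glaucoma 3 D. The part of meningeal fibroblast genes in the collagen difference was not tested.

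Of 27 matrix proteins and proteases, 9 were higher and 1 lower at an unadjusted p under 0.05, and DESeq2 called 4 higher. The 9 became 5 without the female pool of crush 2 W. Tnc, the scar glycoprotein tenascin-C, was at 164 and 240 CPM and then 28.5 and 6.98 CPM after crush, against 102 and 14.2 CPM and then 8.58 and 1.42 CPM in glaucoma (2.32, SE 0.55). Timp1, an inhibitor of matrix metalloproteases, was at 133 and 127 CPM and then 100 and 73.3 CPM after crush, against 124 and 19.9 CPM and then 25.6 and 14.2 CPM in glaucoma (1.73, SE 0.43). The groups overlapped for both genes. Fn1, fibronectin, had a log2 difference of 1.31 (SE 0.38). Bcan, the proteoglycan brevican, was the 1 lower member (-0.71, SE 0.22). Of 18 integrin subunits, 7 were higher and 0 lower, with a median of 0.41, and DESeq2 called 5 higher. By share and median this list is not set apart from the housekeeping genes (4 of 10 higher, median 0.41). Itga5, the fibronectin receptor chain, had a log2 difference of 1.19 (SE 0.27). Itgb5, a vitronectin receptor chain, was at 80.7 to 115 CPM after crush and 52.5 to 64.9 CPM in glaucoma, with no overlap (0.76, SE 0.16).

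Genes of myelin and mature oligodendrocytes were lower after crush. Of 22 such genes, 0 were higher and 14 lower by edgeR at an unadjusted p under 0.05 over both times, against 6.4% lower over all genes, and 21 of the 22 log2 differences were below 0. DESeq2 called 0 higher and 2 lower (Fa2h and Mobp). Their median was -0.34 at 3 D and -0.85 at 2 W, where 17 were lower at an unadjusted p under 0.05. With single libraries left out, the pooled median ran from -0.86 to -0.57 and the number of lower members from 10 to 18.

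Fa2h (chr8:111345135-111393824, minus strand, GRCm38), which makes the hydroxylated fatty acids of myelin lipids, was at 172 and 210 CPM in the female and male pools at 3 D and 139 and 175 CPM at 2 W after crush, against 390 and 468 CPM and then 297 and 373 CPM in glaucoma, and 641 and 515 CPM in the naïve MON. It averaged 174 ± 29.1 CPM after crush and 382 ± 70.2 CPM in glaucoma (SD, n = 4 each), without overlap, and the log2 difference of -1.17 (SE 0.18) at 3 D was close to that of -1.09 (SE 0.18) at 2 W. Mobp, a structural protein of compact myelin, was at 12390 and 8987 CPM and then 5542 and 5895 CPM after crush, against 15680 and 20849 CPM and then 14861 and 14805 CPM in glaucoma (-1.08, SE 0.23). Mbp, the myelin basic protein gene, had a log2 difference of -0.93 (SE 0.23). Hapln2, which binds hyaluronan at the nodes of Ranvier, was at 287 and 324 CPM and then 141 and 143 CPM after crush, against 373 and 377 CPM and then 314 and 395 CPM in glaucoma (-0.81, SE 0.23). Mag, an adhesion molecule of the inner myelin layer, overlapped (-0.35, SE 0.18), and Trf, the iron carrier transferrin that oligodendrocytes make, had the 1 value above 0 (0.11, SE 0.25).

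RNA of cholesterol synthesis genes was lower after crush, with more lower members at 2 W than at 3 D. Of 19 genes of the pathway, 0 were higher and 13 lower by edgeR at an unadjusted p under 0.05 over both times, and DESeq2 called 0 higher and 7 lower. At 2 W all 19 log2 differences were below 0, with 17 at an unadjusted p under 0.05 and 11 called by DESeq2. At 3 D 17 lay below 0, with 2 lower at that p and 0 called by DESeq2. The median was -0.38 at 3 D and -1.28 at 2 W (-0.93 over both times, or -0.59 without the female pool of crush 2 W), and the summed CPM was 599 and 816 in the female and male pools of crush 2 W, against 1708 and 2273 in those of glaucoma 2 W. Hmgcs1, the synthase that feeds the pathway, was at 530 and 361 CPM at 3 D and 115 and 163 CPM at 2 W after crush, against 668 and 854 CPM and then 472 and 609 CPM in glaucoma, and 1101 and 727 CPM in the naïve MON. The groups were apart at each time, by a log2 difference of -0.75 (SE 0.29) and then -1.96 (SE 0.30). Sqle, the squalene epoxidase, had a log2 difference of -1.11 (SE 0.30), and Cyp51, a demethylase of the pathway, one of -1.11 (SE 0.25). Ebp, a sterol isomerase, had the 1 pooled value above 0 (0.09, SE 0.22).

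The promoter of Hmgcs1 (chr13:119690101-119690350, plus strand, RefSeq on GRCm38.p6) is shown since it held both a sterol response element, searched as TCACNCCAC, and CCAAT boxes. Capitals mark these strings on either strand, with CCAAT read as ATTGG where it lies on the other strand.
Hmgcs1: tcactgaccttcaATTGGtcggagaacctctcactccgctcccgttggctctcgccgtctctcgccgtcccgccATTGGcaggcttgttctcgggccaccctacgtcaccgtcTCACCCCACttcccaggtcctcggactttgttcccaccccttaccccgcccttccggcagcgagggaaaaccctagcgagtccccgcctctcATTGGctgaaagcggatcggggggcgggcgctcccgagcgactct
CCAAT stood in the promoters of 14 of 14 cholesterol synthesis genes with an entry (100%), against 37.5% of all genes with an entry. The sterol string stood in 1 of 14 (7.14%), against 1.22% of all genes with an entry, and the strings share no base in this promoter.

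**Figure D3:**
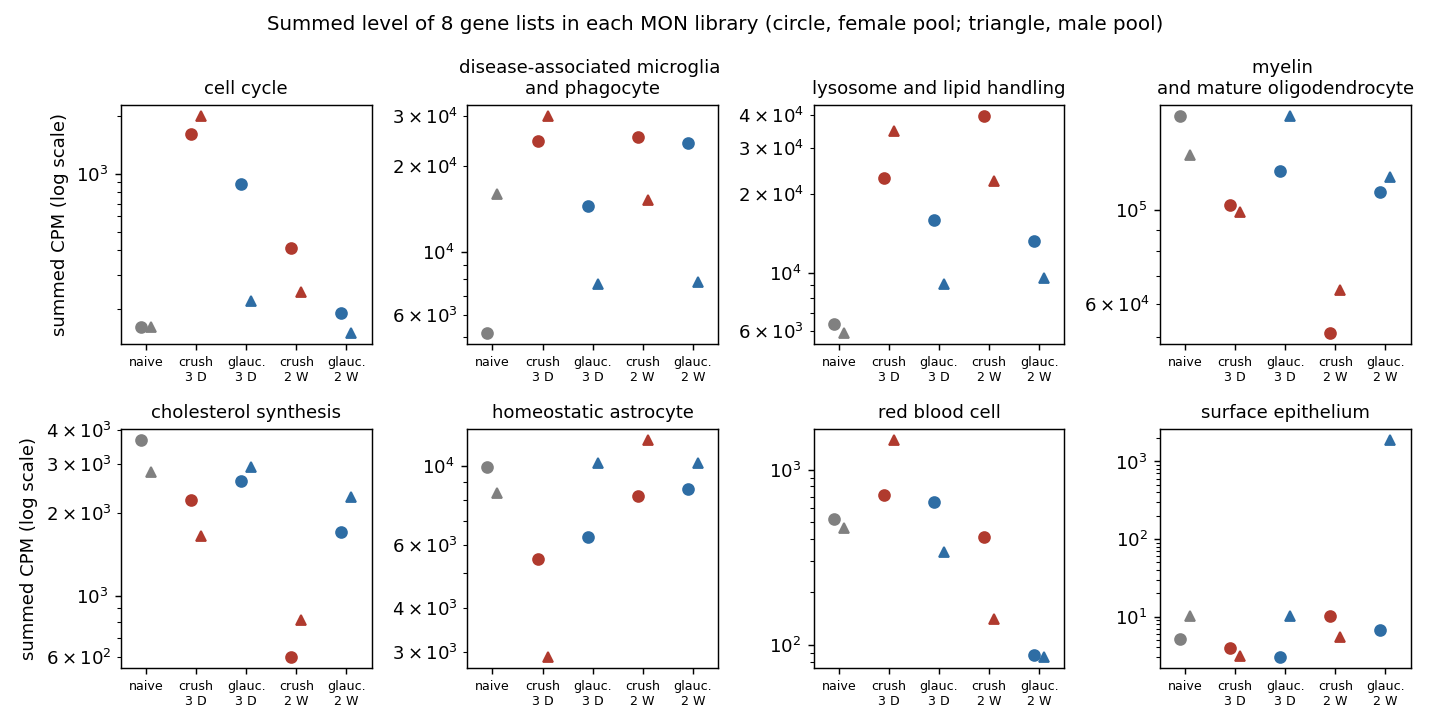
Summed CPM (log axis) of 8 gene lists in each MON library, with naïve, crush and glaucoma at 3 D and 2 W along the x axis, circles for female and triangles for male pools. Crush lies above glaucoma within each time for lysosomal and cell cycle genes, and below it within each time for myelin and cholesterol synthesis. Surface epithelium stands at 1906 CPM in the male pool of glaucoma 2 W alone.

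Oligodendrocyte precursor genes were mixed: of 15, 1 was higher and 4 lower at an unadjusted p under 0.05. Cspg4, the NG2 proteoglycan of precursors and pericytes, was at 64.7 to 167 CPM after crush and 33.4 to 77.8 CPM in glaucoma (0.95, SE 0.22). Olig2, a lineage factor, had a log2 difference of -0.58 (SE 0.17), and Pdgfra, the growth factor receptor of precursors, overlapped (-0.29, SE 0.23).

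Homeostatic astrocyte genes were lower after crush at 3 D, where 14 of 14 log2 differences lay below 0 and 5 were lower at an unadjusted p under 0.05, against 0 at 2 W. Over both times, of these 14 genes 0 were higher and 1 lower (S100b, a calcium-binding protein, -0.51, SE 0.18). The median was -0.72 at 3 D and 0.12 at 2 W, and the summed CPM was 2912 in the male and 5475 in the female pool of crush 3 D, against 6309 to 11838 in the other 6 libraries. In glaucoma 3 D it was 10202 in the male and 6309 in the female pool, so that the female pools lay closer together. The pooled median of -0.33 was 0.01 without the male pool of crush 3 D. Aqp4, the water channel of astrocyte endfeet, was at 285 and 72.1 CPM and then 1133 and 1305 CPM after crush, against 421 and 593 CPM and then 812 and 1118 CPM in glaucoma. The log2 difference of Aqp4 was -1.57 (SE 0.61) at 3 D and 0.33 (SE 0.57) at 2 W. Of 13 pan-reactive astrocyte genes, 5 were higher and 1 lower at an unadjusted p under 0.05 over both times, with a median of 0.40. By share and median this list is not set apart from the housekeeping genes (4 of 10 higher, median 0.41). The 5 became 3 without the female pool of glaucoma 2 W. Lcn2, the iron-binding lipocalin, was at 54.2 and 16.7 CPM and then 211 and 32 CPM after crush, against 5.54 and 14.8 CPM and then 4.74 and 9.94 CPM in glaucoma (2.62, SE 0.91). Serpina3n, a protease inhibitor, was at 1579 to 2385 CPM after crush and 785 to 1496 CPM in glaucoma, without overlap (0.72, SE 0.19), whereas Gfap overlapped (-0.21, SE 0.28).

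In the gp130 cytokine group, 4 of 16 genes were higher and 3 lower at an unadjusted p under 0.05, which became 2 and 1 without the male pool of crush 3 D or of glaucoma 3 D. Lifr, the receptor chain for leukemia inhibitory factor and ciliary neurotrophic factor, was at 23.1 and 42.5 CPM and then 24.4 and 49.9 CPM after crush, against 68.3 and 90 CPM and then 73.5 and 79.2 CPM in glaucoma, without overlap (-1.22, SE 0.18). Socs3, the feedback inhibitor of this pathway, was at 50 to 150 CPM after crush and 31.6 to 105 CPM in glaucoma (1.03, SE 0.22). Cntfr, the receptor subunit for ciliary neurotrophic factor, was at 3.75 and 3.54 CPM at 3 D and 12.8 and 19.1 CPM at 2 W after crush, against 22.4 and 27.8 CPM and then 10.5 and 26.4 CPM in glaucoma. Its log2 difference was -2.76 (SE 0.39) at 3 D and -0.15 (SE 0.36) at 2 W, a change that DESeq2 called.

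**Figure D4:**
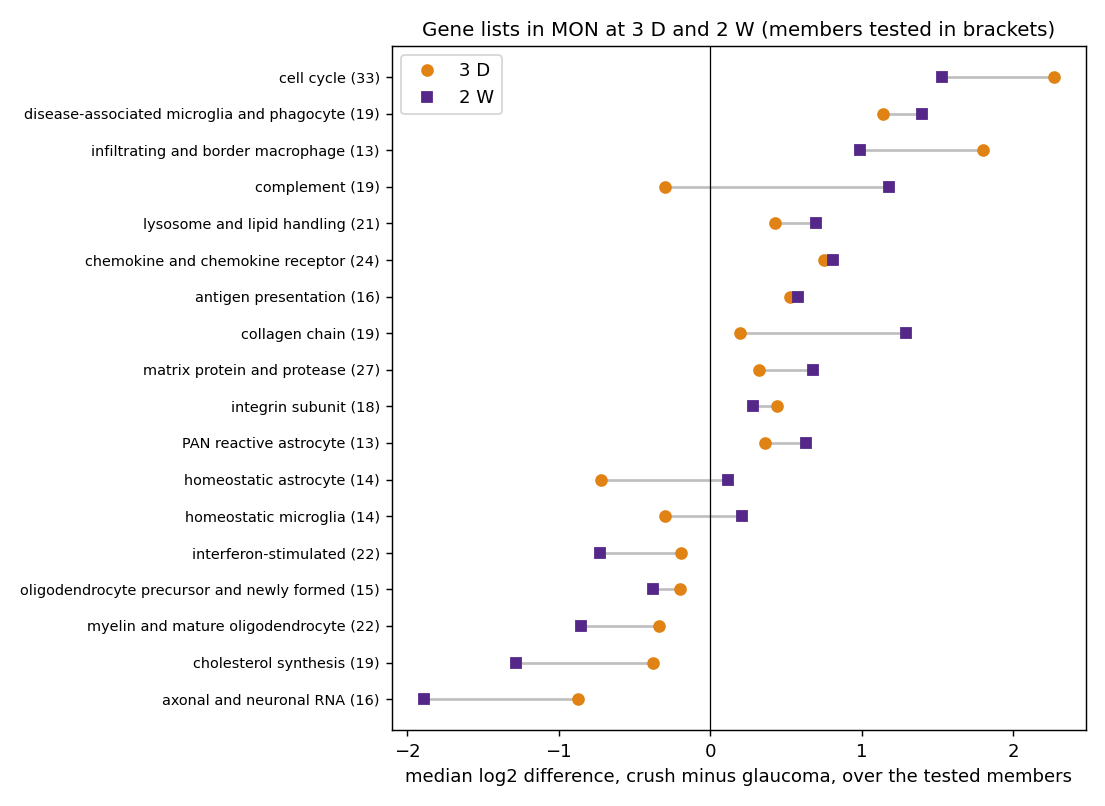
Median log2 difference of crush minus glaucoma (x axis) over the tested members of 18 gene lists (y axis) at 3 D (circles) and 2 W (squares), with 2 libraries a side at each time. Cell cycle genes lie at 2.27 and 1.53, cholesterol synthesis at -0.38 and -1.28, and axonal RNA at -0.87 and -1.89, and the complement and homeostatic astrocyte medians change sign between times.

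Beyond the lists, the largest differences that DESeq2 called over both times were taken by the naming rule, after values were seen. Higher after crush were Aqp1, a water channel (32.1 and 22.1 CPM at 3 D and 16.6 and 2.27 CPM at 2 W after crush, 0.0418 to 10.2 CPM in glaucoma, log2 difference 4.21, SE 0.81), and Htr2b, a serotonin receptor of microglia. Htr2b was at 29.2 and 43.1 CPM and then 35.2 and 5.49 CPM after crush, against 12.8 and 3.07 CPM and then 0.454 and 0.669 CPM in glaucoma (3.56, SE 0.70). Apoc2, an activator of lipoprotein lipase, had a log2 difference of 3.07 (SE 0.78), Hpse, the heparan sulfate degrading heparanase, one of 3.07 (SE 0.84), and Msr1, a scavenger receptor of macrophages, one of 2.76 (SE 0.85). In each of these 5 genes the female pool of glaucoma 3 D was the highest glaucoma library. Of the 12 genes so named that were lower, 6 (Slc5a1, Krt6b, Krt13, Tspan1, Upk1b and Dsc2) were high in the male pool of glaucoma 2 W alone, the library with the epithelial genes. Krt13, a keratin, was at 163 CPM there and at 0 to 0.825 CPM in the other 7. The other 6 were the neuronal genes Unc13c, Rph3a, Kif5a, Nrsn1, Nefh and Cacng3.

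At 3 D edgeR called 1 gene (0.00448%), Gm3226, a predicted gene with no known role that lies outside the naming rule. It was at 1.31 and 0.567 CPM after crush and 122 and 110 CPM in glaucoma at that time, with 49.6 to 74.6 CPM in the 4 libraries of 2 W (log2 difference at 3 D -7.07, SE 0.40, adjusted p 0.0119 by edgeR). DESeq2 called 275 genes (1.23%) higher and 148 (0.664%) lower at 3 D. At 2 W edgeR called 0 genes (0%), and DESeq2 called 149 (0.668%) higher and 140 (0.628%) lower. Igf2, a growth factor of meningeal and vascular cells, was at 0.49 and 0.391 CPM at 3 D and 46.2 and 44.9 CPM at 2 W after crush, against 11.8 and 38.6 CPM and then 10 and 12.7 CPM in glaucoma. The crush libraries were thus the lowest of their time at 3 D and the highest at 2 W. The log2 difference of Igf2 was -5.79 (SE 0.59) at 3 D and 2.03 (SE 0.46) at 2 W, a change of 7.83 (SE 0.75) that DESeq2 called and edgeR did not (adjusted p 0.196). Gas1, a receptor of hedgehog signals, was at 0.49 and 0.626 CPM at 3 D and 26.1 and 32 CPM at 2 W after crush, against 20.7 and 0.762 CPM and then 3.51 and 7.97 CPM in glaucoma (change 6.26, SE 1.92). Gldn, which encodes gliomedin of the node of Ranvier, was at 12.8 and 8.57 CPM and then 49.6 and 76 CPM after crush, against 21.6 and 11.1 CPM and then 16.2 and 19 CPM in glaucoma (change 2.45, SE 0.57, called by DESeq2).

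The same comparison in the UON used the libraries of the same injuries and times, 8 in number, and the difference between regions was tested by the interaction of tissue and injury over 25320 genes. The pieces came from the same nerves, a pairing that was not in this model. edgeR called 0 genes (0%), with a smallest adjusted p of 0.942, and DESeq2 called 476 (1.88%). At an unadjusted p under 0.05 by edgeR there were 1179 genes (4.66%). With the nerve pool as a block, edgeR called 3, Pcdhb17, mt-Rnr1 and mt-Nd5, each listed at 0 in several libraries of both regions. The median log2 difference of the lists was 1.96 in the MON and 0.63 in the UON for the cell cycle. It was -0.71 and 0.02 for myelin, -0.93 and -0.00 for cholesterol synthesis, and 0.77 and -0.06 for collagen chains. For phagocyte genes it was 1.40 and 0.94, and for chemokines 0.71 and 0.79. These medians are descriptions, and no list difference between regions was tested.

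Among single genes that DESeq2 called between regions, Gpx3, a secreted glutathione peroxidase, was at 84.9 to 128 CPM after crush and 19.8 to 59.7 CPM in glaucoma in the MON, without overlap. Its log2 difference was 1.80 (SE 0.33) in the MON and -0.40 (SE 0.42) in the UON, and the difference between them was 2.16 (SE 0.61). Col2a1, a fibrillar collagen, had a log2 difference of 1.68 (SE 0.49) in the MON and -1.98 (SE 0.91) in the UON, which differed by 3.65 (SE 1.23). Kcnj16, a potassium channel subunit of glia, was at 7.12 to 12.2 CPM after crush and 16.7 to 36.1 CPM in glaucoma in the MON (-1.20, SE 0.21), against a log2 difference of 0.74 (SE 0.36) in the UON. Sncg had a log2 difference of -1.83 (SE 0.35) in the MON and 0.19 (SE 0.41) in the UON. edgeR called none of these genes between regions, with or without the nerve pool as a block. With that block, its adjusted p was 0.972 for Gpx3 and 0.952 for both Col2a1 and Kcnj16. Kif5a, given for contrast, was lower after crush in both regions (-3.67, SE 1.28 in the MON and -4.24 in the UON). Its difference between regions was 0.51 (SE 2.12). Kif5a stands outside the axonal and neuronal list, whose median log2 difference was -0.98 in the MON and -0.04 in the UON.

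**Figure D5:**
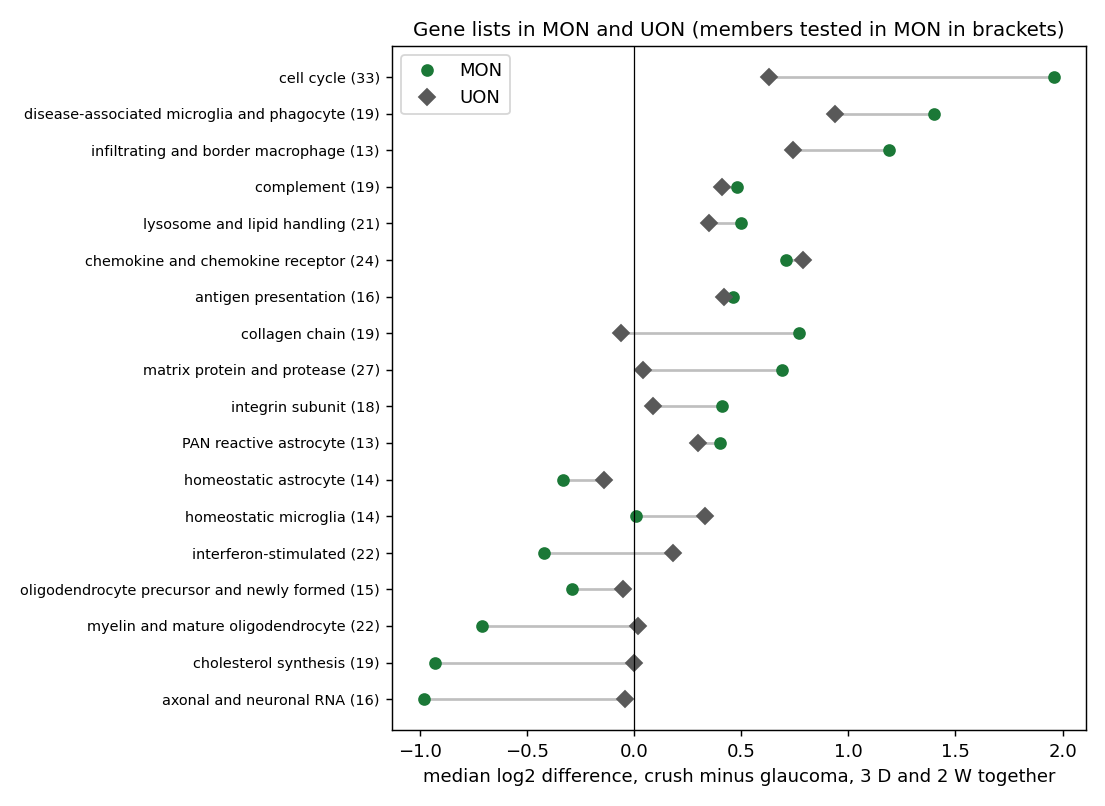
Median log2 difference of crush minus glaucoma (x axis) over the members of 18 gene lists (y axis), 3 D and 2 W together, in the MON (circles) and the UON (diamonds), from 4 libraries of each injury in each region. The myelin, cholesterol synthesis and collagen medians lie near 0 in the UON and at -0.71, -0.93 and 0.77 in the MON, and the chemokine medians lie close together.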

How the data were processed

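RNA was measured in 8 MON libraries, each from a pool of 2 mice of one sex. The authors aligned paired reads of 150 bases to GRCm38 with HISAT2 2.2.1 and assembled them with StringTie 1.3.0 on Gencode M25, keeping reference and assembled transcripts. The deposited estimated counts per gene are StringTie coverage converted to whole counts by the authors, so that 1 read pair can add several counts, and are not normalized. The FPKM deposited by the authors served 1 alternative, after 10 values below 0 were set to 0. Here the counts were scaled by TMM and genes of low count were dropped with filterByExpr (10 counts in enough libraries, 15 in all), so that 22302 of 55487 were tested. The edgeR 4.0.16 quasi-likelihood test (R 4.3.3) was fitted with time, injury and sex, and by group for each time, with Benjamini-Hochberg adjustment over all genes. The common biological coefficient of variation was 0.518, with 4 residual degrees of freedom. DESeq2 1.42.0 and limma 3.58.1 were alternatives. Whether strand was used in counting is not given in the sources used here, so overlapping genes may share reads.

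The naming rule took, among called genes, the 12 largest log2 differences in each direction (official symbol, mean of at least 5 CPM, same sign in all 4 pairs of libraries of one sex and time), and 5 in each direction for the change between times and between regions. It also took up to 5 members of each of 39 gene lists by smallest p, and cell type markers. Since edgeR called no gene of that kind, the rule was applied to DESeq2 calls, a choice made after values were seen, as were further list members named for contrast. The libraries and gene lists were chosen with earlier results of these data known. Xist and Ddx3y matched the labelled sex in 8 of 8 libraries. No pair of libraries held identical counts. MON and UON libraries of one injury, time and sex came from the same mice, and their female minus male differences had correlations of 0.01 to 0.11 over 21599 genes outside the X and Y chromosomes. Steps were tested on simulated data. Some genes of the lists are counted in them but not reported here by name.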

Additional observations from a re-analysis of the deposited data

How the results depend on the processing

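Counts of called genes depended on the tool and on single libraries. Over both times 0 genes were called in either direction, against 504 higher and 205 lower after crush with DESeq2, 2 and 1 without a filter on low counts, and 1 lower with naïve and 6 W libraries added. At 3 D the 1 called gene became 423 with DESeq2, 7 without the filter and 4 with libraries added. At 2 W the count of 0 became 289, 39 and 12 under the same settings and 4 without the sex term. The change between times went from 0 to 60, 12 and 3, to 1 without the sex term and to 1 with limma on log2 FPKM. MON against UON went from 0 to 476 with DESeq2 and to 3 with the replicate block by nerve pool, an alternative chosen after seeing the data. Leaving out each library in turn gave 0 to 66 higher and 0 to 25 lower over both times, 1 to 606 at 3 D, 0 to 38 at 2 W and 0 to 26 for the change between times. The highest of these came without the female pool of crush 3 D, except the 38 at 2 W, which came without the female pool of glaucoma 2 W. The cause was not tested.

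Of 219 named genes, 186 had a value under all 15 alternatives and 33 were dropped by the filter at a mean of 5 CPM. Of the 219, 205 kept 1 sign under each alternative run for them and 14 changed sign under at least 1. None of the 219 was called over both times by edgeR, and 100 were called under at least 1 alternative. Crush and glaucoma libraries came from different mice and the labels give no replicate numbers, so that within the MON only sex linked them, which was already a term. Precision was limited by 2 pools a group, with depths of 16.3 to 76.7 M counts. Standard errors were computed from the log2 difference and the F statistic of the edgeR test. Their dispersion was estimated over all libraries of a fit and moderated across genes. They are thus not the measured spread of the 2 pools of a group, each of 2 mice.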

Other observations

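Interferon-stimulated genes, which cells switch on in response to interferons, had a median log2 difference of -0.42 over 22 genes, with 0 higher and 2 lower after crush at an unadjusted p under 0.05 by edgeR and 0 called by DESeq2 or edgeR. Ifit3, an antiviral gene, was at 127 and 33.6 CPM in the female and male pools at 3 D and 125 and 156 CPM at 2 W after crush. In glaucoma Ifit3 was at 103 and 296 CPM and then 246 and 406 CPM, so that the groups overlapped (log2 difference -1.20, SE 0.48). The number of lower members ran from 0 to 14 as single libraries were left out, with 14 without the female pool of crush 3 D.

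Of 14 targets of p53, the stress factor that halts division, 7 were higher and 0 lower at an unadjusted p under 0.05, and DESeq2 called 3 higher. Cdkn1a, the cell cycle inhibitor p21, was at 96.5 and 188 CPM and then 102 and 123 CPM after crush, against 148 and 72.5 CPM and then 34 and 25.9 CPM in glaucoma. Its log2 difference was 0.38 (SE 0.44) at 3 D and 1.92 (SE 0.45) at 2 W. Of 21 immediate early genes, which respond first to stimulation or dissection, 8 were higher and 0 lower. Their median was 0.52 and DESeq2 called 1, so that they are not clearly set apart from the housekeeping genes. The number of higher p53 targets ran from 2 without the female pool of crush 2 W to 9 without that of glaucoma 3 D.

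Of 13 lymphocyte genes 0 were higher or lower at an unadjusted p under 0.05 by edgeR and DESeq2 called 0. Of 9 Schwann cell genes tested 0 were higher and 1 lower. Of 14 endothelial genes 1 was higher and 1 lower, and of 9 pericyte and smooth muscle genes 0 were. Of 9 neutrophil genes tested 2 were higher and 0 lower, and Camp, Ngp and Elane were not tested. Of 21 genes of the TGF-beta and BMP pathways 6 were higher and 0 lower, with a median of 0.06. They became 1 higher and 2 lower without the female pool of crush 2 W, and at 3 D 2 were higher and 3 lower. The astrocyte lists known as A1 and A2, of 12 genes each, had 1 and 2 higher members and 0 lower. Of 10 housekeeping genes 4 were higher and 1 lower, with a median of 0.41, and the 4 ran from 1 to 6 with single libraries left out. Of 37 genes that the study named for the MON, 18 were higher and 3 lower, and since they were chosen on libraries that include these, that count is not independent evidence of a direction.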
